A study of Mus musculus with 16 samples.

Results

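The genes described here encode the nuclear-encoded subunits of the 5 complexes of mitochondrial oxidative phosphorylation. They were taken by symbol: Ndufa, Ndufb, Ndufc, Ndufs and Ndufv for complex I, Sdha to Sdhd for complex II, Uqcr for complex III, Cox5 to Cox8 for complex IV and Atp5 for complex V. From these symbols, members were chosen by 1 measured value, a mean level over all 16 libraries of at least 1 CPM, the count scaled to the library's total. Of 55228 gene symbols with counts, 88 matched and 79 were kept, with 36 in complex I, 4 in complex II, 8 in complex III, 12 in complex IV and 19 in complex V. That mean runs over both tissues and both sexes. Just inside it lay Atp5l2-ps at a mean of 1.28 CPM, Cox7a1 at 1.89 and Cox6c2 at 2.46, and just outside it Uqcrh-ps1 at 0.636, Cox8b at 0.304 and Cox6a2 at 0.269.

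RNA was sequenced from mesenchyme of the bladder and the pelvic urethra of wild-type, untreated CD-1 mouse embryos at embryonic day 16.5, and the study asked which genes mark each compartment. There were 4 groups of 4 libraries, 1 group for each sex of each tissue. CD-1 is an outbred stock, each library is a pool of the embryos of 1 sex of 1 litter, and each of 4 litters gave 1 library to every group. The bladder and urethra libraries of a litter and sex therefore come from the same embryos, and no group carries an engineered allele.

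Library totals were 18577097 to 22293812 counts in the bladder and 24447435 to 29698009 in the urethra, so 1 count was worth 0.0337 to 0.0538 CPM. Tissue and depth went together. The mesenchyme genes Col1a1, Col1a2, Col3a1, Pdgfra, Pdgfrb and Vim were present in every library, the lowest value being 53.8 CPM for Pdgfrb in the bladder. Their levels were not alike in the 2 tissues. Median CPM in bladder and urethra were 5581 and 2638 for Col1a1 and 4370 and 2622 for Col1a2. They were 5512 and 3715 for Col3a1 and 929 and 831 for Vim. Pdgfra (128 and 545) and Pdgfrb (60.7 and 163) ran the other way. Uroplakin and keratin genes of the removed epithelium were present too. All 37 genes of mitochondrial DNA were at 0 counts throughout, so the subunits encoded by mitochondrial DNA were not measured. P-values measure the spread between these pools.

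The respiratory chain passes electrons from NADH through complex I, or from succinate through complex II, by way of complex III to complex IV, which reduces oxygen to water. Complexes I, III and IV pump protons across the inner mitochondrial membrane, and complex V, the ATP synthase, lets them flow back to make ATP. Complex II is built from nuclear genes alone, whereas the other complexes join nuclear subunits to a few that mitochondrial DNA encodes. In smooth muscle this machinery supplies ATP for contraction, and the growing fetal bladder wall builds such muscle.

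Genes of these complexes are textbook targets of the transcription factors NRF1, GABPA (an ETS factor), YY1 and the oestrogen-related receptors, which sets the motifs looked for in their promoters. RefSeq promoter windows (GRCm38.p6, 250 bases before to 50 after a start) were found for 65 of 79 members. Each motif was searched on both strands, and where a gene had several windows 1 match was enough. The NRF1 core CGCATGC was in 11 members (16.9%, against 4.01% of all 27025 genes with such a window). Those genes, unlike the members, were not chosen by their level in these libraries. The ETS motif CCGGAAG was in 17 members (26.2% against 9.93%). The YY1 motif AGATGGC was in 10 (15.4% against 7.31%), the oestrogen-related receptor motif AAGGTCA in 8 (12.3% against 5.38%) and the cyclic AMP response element TGACGTC in 7 (10.8% against 3.60%). The GC box GGGCGGG was in 22 (33.8% against 27.9%). A run that matched on both strands counted once, and no motif contains another. A match describes letters and is no binding site by itself. The 4 windows of 150 bases before the start are shown because they hold an ETS motif (Uqcr11, Sdhd), an NRF1 core (Atp5g2) or a receptor motif (Atp5g3), with the matches in capitals.
Uqcr11 (chr10:80406822-80406971, minus strand): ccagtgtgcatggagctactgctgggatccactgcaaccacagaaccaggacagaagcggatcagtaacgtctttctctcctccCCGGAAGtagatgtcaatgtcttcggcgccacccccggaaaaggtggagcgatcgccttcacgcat
Sdhd (chr9:50603850-50603999, minus strand): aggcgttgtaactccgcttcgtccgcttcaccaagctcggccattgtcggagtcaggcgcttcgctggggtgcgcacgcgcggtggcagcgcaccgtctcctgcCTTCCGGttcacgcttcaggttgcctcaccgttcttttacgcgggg
Atp5g2 (chr15:102671048-102671197, minus strand): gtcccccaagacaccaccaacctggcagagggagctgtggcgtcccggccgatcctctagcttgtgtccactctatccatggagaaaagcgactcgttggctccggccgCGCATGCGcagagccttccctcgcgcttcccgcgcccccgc
Atp5g3 (chr2:73911327-73911476, minus strand): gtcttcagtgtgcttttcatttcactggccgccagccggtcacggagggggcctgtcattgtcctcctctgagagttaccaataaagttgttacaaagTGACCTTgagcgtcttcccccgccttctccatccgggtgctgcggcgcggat

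All 79 members were lower in urethra than in bladder mesenchyme, in females and in males. The median difference was −0.92 on the log2 scale, and single members lay between −2.09 for Cox7a1, the muscle-type isoform of a small complex IV subunit, and −0.17 for Sdha, the flavoprotein of succinate dehydrogenase. Cox7a1 averaged under 1 CPM in the urethra and passed the level minimum through the bladder. Among members with at least 1 CPM in both tissues the lowest was Ndufb8, at −2.08. Together the members took 1.47% ± 0.104 (SD, n = 8) of all counts in the bladder and 0.909% ± 0.0654 in the urethra. The lowest bladder library, at 1.30%, lay above the highest urethra library, at 1.01%.

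**Figure D1:**
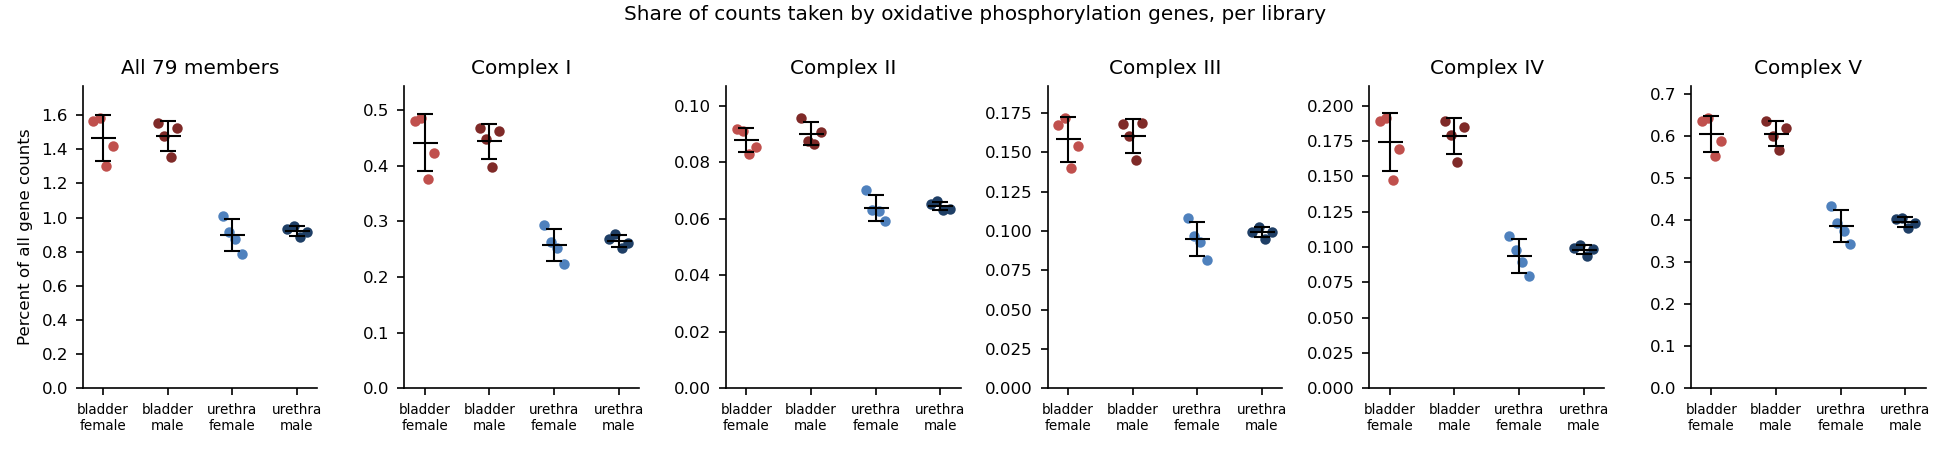
Percent of all gene counts taken by the 79 members and by each complex in the 16 libraries, as points by group, with the mean and SD of 4 libraries as bars. Each complex is lower in both urethra groups, and the 8 bladder libraries run from 1.30 to 1.58% for all members against 0.787 to 1.01% in the urethra.

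By the edgeR quasi-likelihood test 79 of 79 members were lower at a Benjamini-Hochberg adjusted p under 0.05, where 38.5% of the 18254 genes tested were lower and 36.5% higher. With library totals in place of the trimmed mean of M-values (TMM) as the scaling, 8341 genes were higher and 5381 lower, and 78 members were lower. With TMM the median of all tested genes was −0.03. In 32 members the difference was at least 2-fold, against 9.41% of all genes. These were 11 of 36 in complex I, 0 of 4 in complex II, 4 of 8 in complex III, 8 of 12 in complex IV and 9 of 19 in complex V. Cox7a1 and Atp5l2-ps averaged under 1 CPM in the urethra, passed the level minimum through the bladder and therefore had to differ. Of the 77 members with a mean of at least 1 CPM in both tissues 77 were called lower and 30 were at least 2-fold lower, 7 of 11 in complex IV and 8 of 18 in complex V. All 79 were called lower in females, where 33.1% of genes were lower and 32.6% higher, and in males, where 32.6% were lower and 31.4% higher. Of all genes 28.7% were lower in each sex. In 78 the 8 urethra libraries lay wholly below the 8 bladder libraries, against 20.3% of all genes, and Sdha was the exception. Each of the 79 was lower in all 8 within-litter pairs of a sex, and the median over members ran from −0.74 to −1.08 between pairs. The share of all tested genes lower in all 8 pairs was not counted. In bulk tissue fewer cells of a kind rich in these transcripts and less of the transcripts per cell cannot be told apart.

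**Figure D2:**
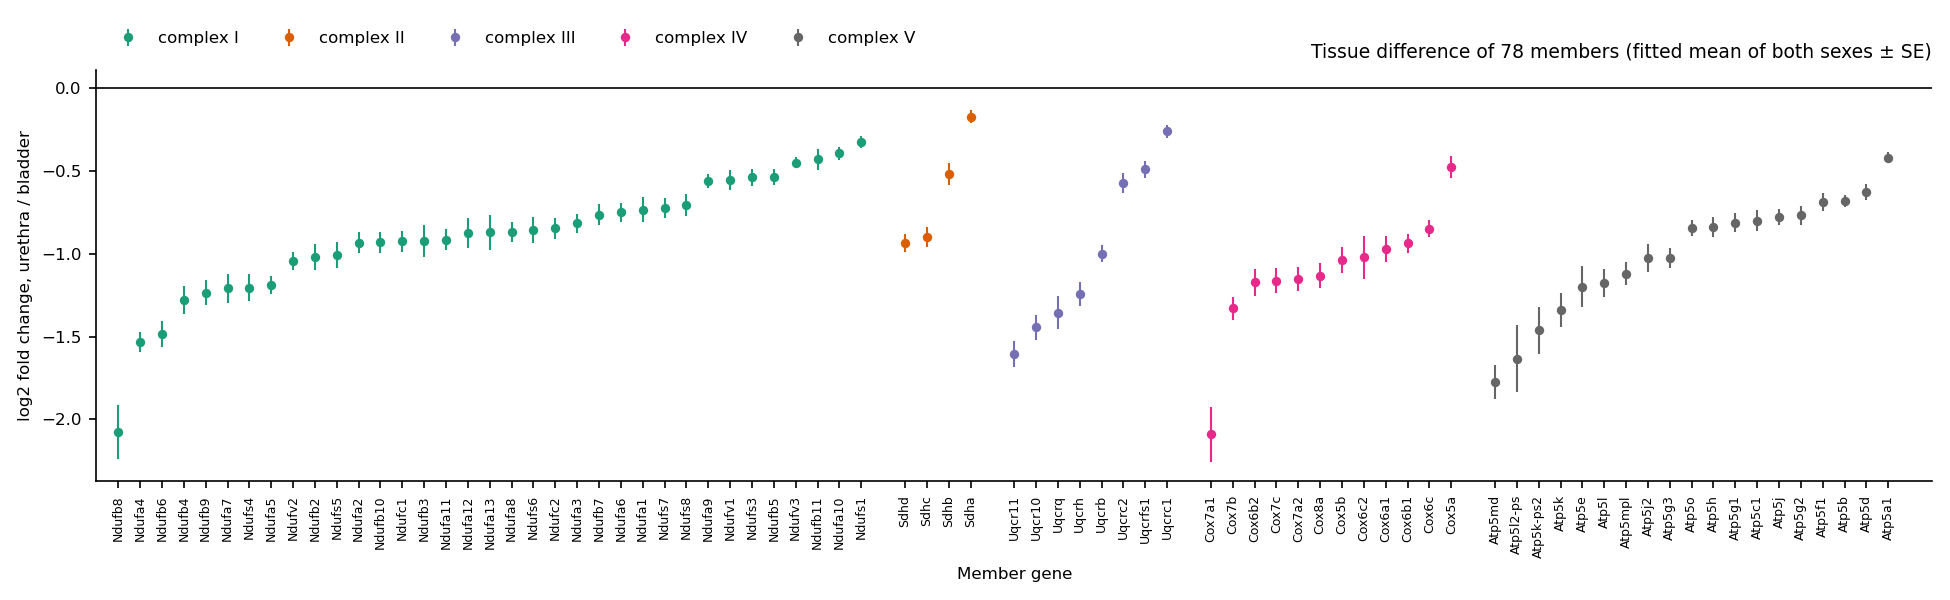
Fitted log2 fold change of urethra over bladder for 78 of the 79 members, as points with standard errors, ordered within complexes I to V. Each point lies below 0, from −2.09 (Cox7a1, which passed the level minimum through the bladder) to −0.17 (Sdha).

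Complex I takes electrons from NADH. Its median was −0.87 over 36 members, and Ndufb8 was the lowest at −2.08. The 7 core subunits, which hold the flavin and iron-sulphur clusters, had a median of −0.55, and the 29 supernumerary subunits, which surround the core, had −0.92. Ndufa4 is counted here by its symbol, although its protein is now placed in complex IV. It stood at 410, 406, 327 and 362 CPM in female bladder and at 374, 376, 313 and 402 in male bladder. In the urethra it was 140, 129, 129 and 114 in females and 127, 133, 126 and 127 in males. The groups of the 2 tissues did not overlap, and its difference of −1.53 ± 0.06 (standard error, 8 libraries a tissue) had an adjusted p of 1.52e-12.

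Ndufb8 encodes a supernumerary subunit of the membrane arm and lies on chromosome 19 from 44548572 to 44555440 (GRCm38, minus strand). Its values were 429, 422, 210 and 260 CPM in female and 410, 380, 245 and 384 CPM in male bladder. In the urethra they were 95.6, 91.7, 70.1 and 61.2 in females and 80.7, 93.6, 75.6 and 80.1 in males. No urethra library reached the lowest bladder library, and replicates 3 and 4 of female and 3 of male bladder fell well below the other bladder libraries. The difference was −2.08 ± 0.16 (adjusted p = 1.45e-08). A same-strand model, Gm20538, overlaps Ndufb8 and had 0 counts in all libraries.

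Ndufv2, which carries an iron-sulphur cluster of the electron input module, was the core subunit with the widest gap, at −1.04 ± 0.05. Ndufb6 stood at −1.48 ± 0.08 and Ndufa5 at −1.19 ± 0.06.

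Complex II oxidises succinate and is shared with the citric acid cycle. Its 4 members divided by position. Sdhd and Sdhc, which anchor the enzyme in the membrane, were at −0.93 ± 0.05 and −0.90 ± 0.06. Sdhd had 250, 243, 207 and 221 CPM in female and 247, 227, 217 and 252 in male bladder, against 138, 121, 117 and 108 in female and 121, 129, 120 and 122 in male urethra. Its tissues did not overlap. Sdhb, the iron-sulphur subunit, was at −0.52 ± 0.07. Sdha lies on chromosome 13 from 74322254 to 74350280 and stood at 238, 232, 277 and 267 CPM in female and 245, 240, 260 and 238 in male bladder. In the urethra it was 226, 222, 228 and 240 in females and 224, 207, 215 and 211 in males. Female urethra replicate 4, at 240 CPM, lay inside the bladder range. The difference was −0.17 ± 0.04 (adjusted p = 0.00137). With library totals as the scaling, Sdha was at −0.03 (adjusted p = 0.456).

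Complex III had a median of −1.12 over 8 members. The large core proteins Uqcrc1 and Uqcrc2 and the Rieske iron-sulphur protein Uqcrfs1 were at −0.26 ± 0.04, −0.57 ± 0.06 and −0.49 ± 0.05. The 5 small subunits, Uqcrb, Uqcrq, Uqcrh, Uqcr10 and Uqcr11, had a median of −1.36. Uqcr11, on chromosome 10 from 80402997 to 80406830 and shown above with its ETS motif, had 142, 149, 112 and 136 CPM in female and 145, 136, 111 and 145 in male bladder. In the urethra it had 49.1, 45.6, 42 and 33.8 in females and 45.5, 47.2, 44.3 and 46.3 in males. Again no urethra library reached the lowest bladder library. The difference was −1.61 ± 0.08 (adjusted p = 2.04e-11).

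Complex IV, cytochrome c oxidase, had a median of −1.08 over 12 members. Over the 11 with a mean of at least 1 CPM in both tissues it was −1.04. Cox5a, which binds the matrix face, was the smallest at −0.48 ± 0.07, and Cox7b stood at −1.33 ± 0.07. Several subunits come as isoform pairs. The ubiquitous Cox7a2 differed by −1.15 ± 0.07, with 160 to 212 CPM in bladder and 68.8 to 97.3 in urethra libraries. Its muscle-type partner Cox7a1 went from 3.15 ± 0.533 to 0.735 ± 0.200 CPM. Single Cox7a1 libraries held 39 to 78 counts in the bladder and 13 to 30 in the urethra, so the ranges did not overlap. Cox7a1 passed the level minimum through the bladder libraries. Cox6a1, the broadly expressed form, was at −0.97 ± 0.08. Its muscle form Cox6a2, which was below the level minimum, ran the other way, with 0 to 2 counts a library in the bladder and 8 to 22 in the urethra (adjusted p = 2.09e-06). Cox6b1 was at −0.94 ± 0.06 and the testis-enriched Cox6b2 at −1.17 ± 0.08, at 28.5 ± 3.07 and 12.7 ± 1.91 CPM. Cox8a, the common form of subunit 8, was at −1.13 ± 0.07, the muscle form Cox8b had 3 to 13 counts a library and Cox8c had 0. Cox7b2 had at most 4 counts in a library.

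**Figure D3:**
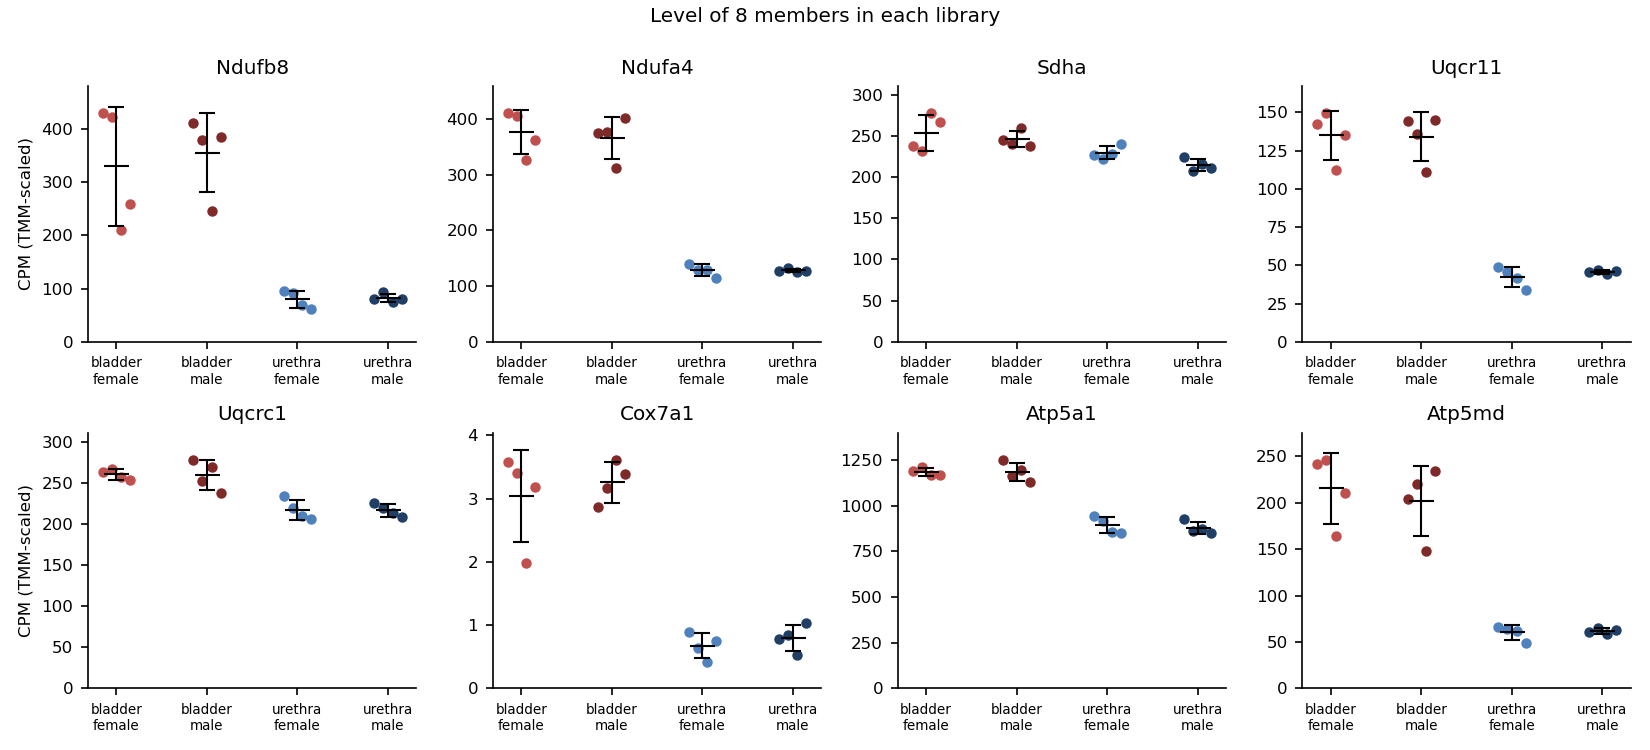
CPM on TMM-scaled totals for 8 members in the 16 libraries, as points by group, with the mean and SD of 4 libraries as bars. The tissues separate in 7 of the 8 genes, and Sdha overlaps, with a female urethra library at 240 CPM inside the bladder range of 232 to 277 CPM.

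Complex V, the ATP synthase, had a median of −0.84 over 19 members, and also over the 18 with a mean of at least 1 CPM in both tissues. The F1 head and central stalk, which hold the catalytic sites and the rotor shaft, had a median of −0.68 over 5 members. Atp5b, the catalytic beta subunit, stood at 1378 ± 50.8 CPM in bladder and 860 ± 29.1 in urethra, a difference of −0.68 ± 0.03, with 1326 to 1488 against 820 to 902 CPM in single libraries. Atp5a1, the alpha subunit, was at 1185 ± 36.4 and 886 ± 37.1 CPM, a difference of −0.42 ± 0.03, the smallest in the complex. The 3 genes for the identical mature c subunit of the membrane rotor, Atp5g1, Atp5g2 and Atp5g3, were at −0.81 ± 0.06, −0.77 ± 0.06 and −1.03 ± 0.06. The 4 peripheral stalk members had a median of −0.81, and the 5 small membrane subunits −1.18. Atp5md, a small subunit that helps synthases pair, lies on chromosome 19 from 47083464 to 47090647. It had 242, 246, 164 and 210 CPM in female and 204, 220, 148 and 235 in male bladder. In the urethra it had 66.2, 63.6, 62.3 and 48.8 in females and 60.9, 65.2, 58.3 and 62.8 in males. No library of one tissue reached the other, and the difference was −1.77 ± 0.10 (adjusted p = 1.96e-10).

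Per summed length of all annotated exons of a gene, the highest complex I member was Ndufa4 and the lowest Ndufb2. They stood at 181 and 8.28 CPM per kb over all libraries. The ranks depend on that annotated length, which for Ndufb2 is 5628 bp beside a coding length of 315 bp. Ndufa4 led in the bladder, at 269 CPM per kb, and in the urethra, at 92.8, it stood below Ndufa2 (107), Ndufb11 (104) and Ndufc2 (99.8). In the other complexes the highest over all libraries were Sdhd at 144, Uqcr10 at 212, Cox8a at 339 and Atp5a1 at 330, and these led in each tissue. Of the members 3 are annotated as processed pseudogenes, Cox6c2, Atp5k-ps2 and Atp5l2-ps. They lay at −1.02 to −1.63 with counts near the level minimum. Atp5l2-ps, at −1.63, passed that minimum through the bladder, with 1.99 ± 0.506 CPM there and 0.638 ± 0.188 in the urethra. Reads from parent and copy may be split between them. The symbol Atp5o spans 91684398 to 91931687 on chromosome 16 on the same strand as Cryzl1, which lies within it, and Donson, which it overlaps in part, so its value of −0.84 ± 0.05 is uncertain.

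The pattern of short against long transcripts ran through the members and through the whole table. Members have a median exon length of 1587 bp, against 3854 bp for all tested genes. Across genes, which are not independent, the tissue difference had a Spearman correlation of 0.46 with exon length over 79 members, of 0.71 with coding length over 75, and of 0.28 with exon and 0.23 with coding length over all genes that had one. The core subunits of complex I have a median coding length of 789 bp and its supernumerary subunits 393 bp. In complex III the large and Rieske subunits have 1359 bp and the small ones 246 bp. Genes of up to 500 bp had a median of −0.65, and those over 6000 bp 0.13. Within length ranges most members lay below the median of all tested genes: 16 of 17 members between 501 and 1000 bp, and all of the members in each other range. Other genes with a mean log2 CPM over 5 had medians of −0.57 from 501 to 1000 bp and −0.493 from 1001 to 1500 bp. All tested genes had −0.47 and −0.29 there. Uqcrfs1, of 1363 bp and at −0.490, was not below −0.493. Up to 500 bp those other genes had −0.53, against −0.65. With a smooth length trend taken out of each library, an alternative added after seeing the data, the median of the members was −0.64 and 78 of 79 were called lower. The lost call was Ndufb11, a complex I subunit encoded on the X chromosome, at −0.05 (adjusted p = 0.318). The order of the complexes changed, with complex V at −0.79, IV at −0.79, III at −0.77, I at −0.55 and II at −0.49. The complex V median was the value of the pseudogene Atp5k-ps2. Complex V also counted Atp5l2-ps (−1.04) and complex IV Cox7a1 (−1.60), which passed the level minimum through the bladder. The order among V, IV and III is therefore not read.

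**Figure D4:**
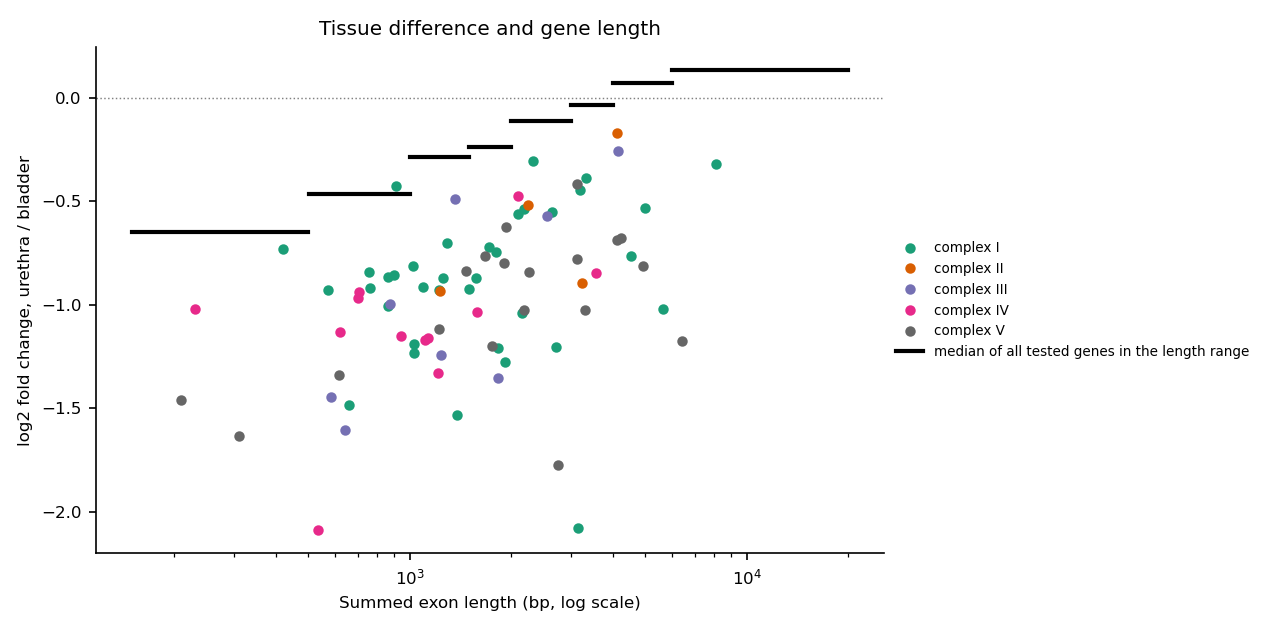
Fitted log2 fold change of urethra over bladder against summed exon length (log scale) for the 79 members, coloured by complex, with black bars for the median of all tested genes in each length range. The medians rise from −0.65 to 0.13 with length, and the members lie below them in all but 1 case.

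The members also rose and fell together between libraries of one tissue. Bladder female replicate 3 was the lowest bladder library for 46 of 79 members and bladder male replicate 3 for 24. Urethra female replicate 4 was the lowest urethra library for 64 and urethra female replicate 1 the highest for 62. The share of all tested genes with their extreme in the same libraries was not counted. The median deviation of the members was 0.24 in bladder female replicate 3 and 0.28 in bladder male replicate 3, against 0.44 to 0.59 in the other 6 bladder libraries. Other genes of up to 1000 bp deviated by 0.06 and 0.08 there, against 0.26 to 0.39, and cytosolic ribosomal protein genes by 0.12 and 0.06, against 0.27 to 0.48. Smooth muscle markers deviated by 1.80 and 1.69 in the same libraries, against 1.25 to 1.65. Epithelium markers were at −0.36 in bladder female replicate 3, against 0.14 to 0.89 in the other bladder libraries. Neuron markers were at 0.03 in bladder male replicate 3, against −3.26 to −1.30. In urethra female replicate 4 epithelium markers, at −1.67, and mesothelium markers, at −3.05, were the lowest of all libraries. The part of these in the members' levels was not tested. In an alternative added after seeing the data, bladder female replicate 3, bladder male replicate 3 and urethra female replicate 4 were left out. There 79 of 79 members were called lower and the median was −0.90. These 3 libraries were chosen by the members' own levels, so that fit is no independent check.

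**Figure D5:**
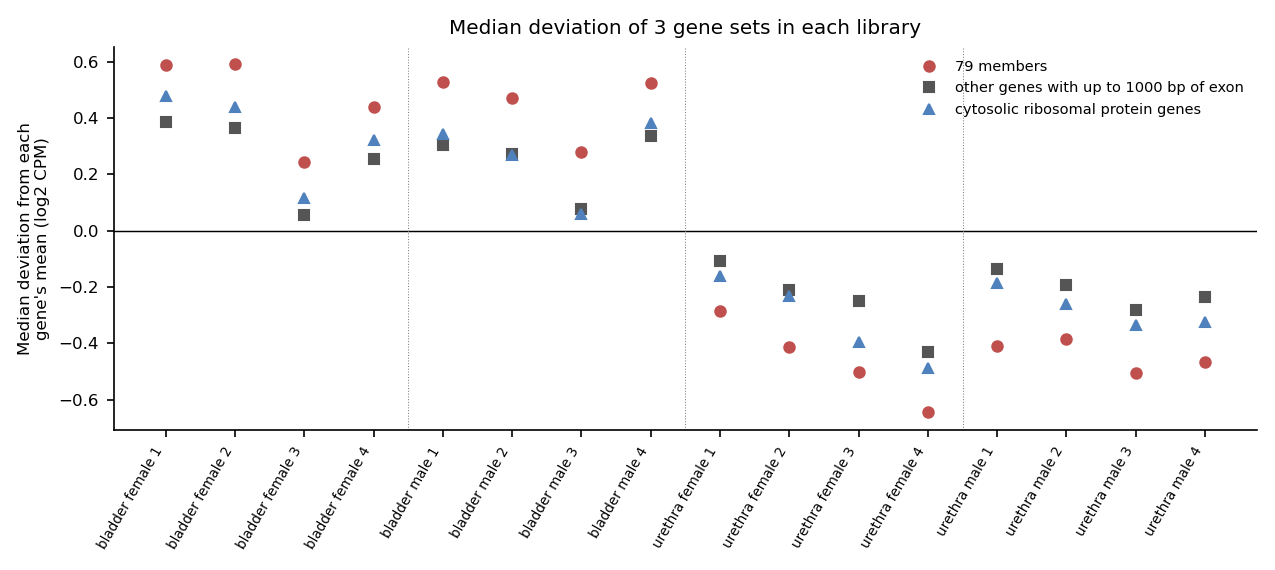
Median deviation (log2 CPM) from each gene's mean over 16 libraries for the 79 members, for other genes with up to 1000 bp of exon and for cytosolic ribosomal protein genes, per library. All 3 sets are above 0 in the 8 bladder and below 0 in the 8 urethra libraries, and the bladder female 3, bladder male 3 and urethra female 4 libraries are the lowest of their tissue and sex in each set.

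Of 7 subunits and partners that the symbol rule left out, the 5 that fell were Cox4i1 (−1.01), the acyl carrier protein Ndufab1 (−0.91), cytochrome c1 Cyc1 (−0.95), cytochrome c Cycs (−0.80) and Ndufa4l2 (−2.29). Cox4i2 at 0.07 and the supercomplex factor Cox7a2l at −0.08 were not called, but with the length trend removed both were called higher, at 0.48 (adjusted p = 3.81e-05) and 0.18 (adjusted p = 5.68e-05). With library totals Cox4i2 was called higher too, at 0.21 (adjusted p = 0.0402). Of 44 assembly factors 31 were lower and 2 higher, with a median of −0.29, and 22 were lower and 8 higher with library totals. The ATP synthase assembly factor Tmem70 was at −2.12, the complex III factor Uqcc2 at −1.34 and the copper chaperone Cox17 at −1.23.

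Most genes of neighbouring pathways were lower as well. All 16 genes of pyruvate dehydrogenase and the citric acid cycle were lower, with a median of −0.41, led by the succinyl-CoA ligase subunits Suclg1 (−0.89) and Suclg2 (−0.80) and by fumarase Fh1 (−0.74). In fatty acid oxidation 14 of 15 tested genes were lower and Cpt1a, the carnitine palmitoyltransferase of entry, was higher at 0.20. With the length trend removed Cpt1a was no longer called (0.08, adjusted p = 0.199) and 13 of 15 were lower, and in males alone it was not called either. In glycolysis 14 of 19 were lower and 4 higher, with a median of −0.45. With library totals 15 of 16 citric acid cycle genes were lower. In that scaling 11 of 15 fatty acid oxidation genes were lower and 1 higher, and 12 of 19 glycolysis genes lower and 4 higher. Of 9 tested carriers and creatine kinases 7 were lower, Ckm at −6.40 and Ckb at −3.03. Cytosolic ribosomal protein genes were lower in 85 of 86, with a median of −0.61. With the length trend removed the medians were −0.42 for the citric acid cycle, −0.49 for glycolysis and −0.37 for ribosomal protein genes, beside −0.64 for the members. Of 20 regulators of mitochondrial biogenesis 4 were lower and 9 higher, which became 6 and 6 with the length trend removed and 3 and 13 with library totals. Of all 18254 tested genes 36.5% were higher and 38.5% lower. With library totals 8341 of them were higher and 5381 lower. The coactivator gene Ppargc1b was at −1.46 and the receptor gene Esrra at −1.06, while the receptor gene Esrrg was at 2.16.

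Markers of other cell types were set beside the members, where 36.5% of all tested genes were higher in the urethra and 38.5% lower. Smooth muscle markers were lower in 12 of 12, with a summed level of 17397 to 22604 CPM in the bladder and 2081 to 2770 in the urethra. Of 12 skeletal muscle markers 10 were higher and 2 lower (53.4 to 94.3 against 148 to 281 CPM). Of 12 epithelium markers 8 were lower and 1 higher (1773 to 4368 against 628 to 2114 CPM). With library totals 7 were lower and 3 higher, and with the length trend removed 8 and 2. Of 12 proliferation genes 10 were lower (2200 to 2494 against 1557 to 1804 CPM). With library totals 9 were lower and 1 higher, and with the length trend removed 11 were lower. Mesothelium markers were lower in 5 of 6 (727 to 1358 against 147 to 316 CPM) and red blood cell markers in 5 of 8 (1467 to 2602 against 1202 to 1662 CPM), or 2 of 8 with library totals. With the length trend removed 1 of 8 red blood cell markers was lower, and their median went from −0.46 to −0.02. Neuron markers were higher in 8 of 8 (39.7 to 372 against 1351 to 2210 CPM), glia markers in 6 of 6 (50.6 to 96.9 against 134 to 172 CPM) and endothelium markers in 6 of 8 with 1 lower (291 to 465 against 455 to 620 CPM). Of 8 immune cell markers 3 were higher and 1 lower (98.8 to 138 against 108 to 134 CPM), or 5 higher with library totals or with the length trend removed. The 3 of 8 are near the share of all genes called higher. No marker was at 0 in all libraries. Their part in the result was not tested.

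Between the sexes no member was called in either tissue. A fit with the litter as a replicate block and the length trend removed together called Ndufa5 and Ndufb10 lower in male than in female urethra. Their differences were −0.19 (adjusted p = 0.0300) and −0.16 (adjusted p = 0.0310). In that fit 785 of all 18254 tested genes were lower in male urethra and 900 higher. In the bladder the differences of males from females ran from −0.21 to 0.14 with a median of −0.01 and a median standard error of 0.09, and in the urethra from −0.14 to 0.29 with a median of 0.02. Of 79 members 0 were called by the edgeR quasi-likelihood test in the bladder (background 0.247% higher in males, 0.334% lower) and 0 in the urethra (3.97% and 2.42%). At an unadjusted p under 0.05 there were 0 and 1, and the DESeq2 Wald test called 0 in both tissues. The 1 was Cox6b2 in the urethra, at 13.4, 9.83, 12.1 and 10.3 CPM in females and 13.1, 15.8, 13.5 and 13.4 in males. Its groups overlapped and the difference was 0.29 ± 0.12 (adjusted p = 0.178). In the bladder Ndufa5 had the smallest p, at −0.16 ± 0.08 (adjusted p = 0.406). The tissue difference itself did not pass a test of a difference between the sexes in any member: 0 of 79 for the interaction, against a background of 0.537% higher and 0.131% lower, with 0 at an unadjusted p under 0.05 and 0 by DESeq2. Its fitted values ran from −0.09 to 0.37. These results bound the differences and do not show that the sexes are equal.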

How the data were processed

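Per the labels' protocols, mesenchyme was parted from epithelium with trypsin and forceps, and poly(A) libraries were made with a stranded kit from 250 ng of total RNA and read as 100 bp paired ends. Per the submitters' processing notes, reads were aligned to GRCm38 with HISAT2 2.1.0 and counted with Subread 1.6.3. Per the file headers, the deposited counts are read pairs per gene symbol with strand setting 2. Which GENCODE release was used is not given in sources used here, and 78 of 79 members have the start and end of release M21. The second deposited table holds signal, the counts divided by the authors' DESeq2 size factors, and was used only to recover those factors.

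Counts were tested with edgeR 4.0.16 (quasi-likelihood, TMM, filterByExpr, robust) in 1 fit of 4 groups over 18254 genes, with limma 3.58.1 beneath it, in R 4.3.3. All 79 members passed the filter. P-values were adjusted by Benjamini-Hochberg over the whole table of tested genes. CPM use TMM-scaled totals, and log2 CPM a prior count of 2. Standard errors are the log2 fold change over the square root of the F statistic, an approximation. DESeq2 1.42.0, scaling by totals or size factors, no filter, litter blocks, a minimum of 10 CPM and each library left out were alternatives. Plots used matplotlib 3.10.9 and pandas 2.3.3 under Python 3.11.15. On simulated data for 17925 genes, the tissue test called with the right sign 41.7% of genes changed by 0.3, 66% by 0.5, 79.6% by 1 and 100% by 2 on the log2 scale. For each size 48 to 50 tested genes were changed there, drawn from all levels. In the data 38.5% of genes were called lower and 36.5% higher, so these rates do not describe the power for the members.

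The labels give the litter, so bladder and urethra of 1 litter and sex are paired. Their deviations from the group means correlated at 0.092 to 0.409 with a median of 0.194, and 7 of 8 exceeded 0.1. For pairs from other litters the median was −0.065.

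The members, lists, roles and motifs were chosen with earlier results of these data known. Named members were the 10 with the smallest tissue p, the extremes of each complex by fold change and by level per length, the isoform groups, those nearest the level minimum and the smallest p of each sex contrast. From other lists up to 3 called genes with the largest change were named, and further ones were chosen after their values were seen. The result for 1 member that the rule names is not reported here.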

Additional observations from a re-analysis of the deposited data

Results flagged for a closer look

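Each group of 4 libraries was searched for a library far from the other 3 by Dixon's test, which chance passes in about 1 in 20 groups. Of 120 groups 4 passed. The pseudogene Atp5l2-ps had 0.405 CPM in urethra female replicate 4. Cox6b2 had 15.8 CPM and Cox7a2 92.1 CPM in urethra male replicate 2. The pseudogene Cox6c2 had 4.67 CPM in bladder male replicate 4.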

How the results depend on the processing

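The 79 tissue calls held with DESeq2, with its size factors, and with each library left out, where the median ran from −0.86 to −0.96. With the litter as a replicate block, or the litter within sex, 79 members were lower and the median was −0.92, and no other call changed. The median was −0.78 with library totals, which moved the median of all genes from −0.03 to 0.11, and −0.64 with the length trend removed, also with the litter as a replicate block. Sdha was no longer called with library totals (−0.03, adjusted p = 0.456) or without the filter (−0.10, adjusted p = 0.117). Ndufb11 was no longer called with the length trend removed (−0.05, adjusted p = 0.318, and 0.288 with the block). Removing that trend together with the replicate block called 2 members lower in male than female urethra, against 0 otherwise. They were Ndufa5 (−0.19, adjusted p = 0.0300) and Ndufb10 (−0.16, adjusted p = 0.0310). The same fit called 785 of all 18254 tested genes lower in male urethra and 900 higher. The cause of these changes was not tested. Blocks by litter within sex give no sex contrasts.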
